A study of Mus musculus with 8 samples.

Results

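Immediate early genes are switched on within minutes of a stimulus without new protein synthesis, because the factors that drive them are already present in the resting cell. Most of them encode transcription factors that go on to set the next round of gene expression, and a few encode proteins that shut the signal down. In the lung they respond to growth factors, cytokines, mechanical stretch, oxidants and bacterial products, and they also respond quickly to handling of the tissue. The 10 genes described here, taken as a fixed list of names, were Fos, Fosb, Jun, Junb, Egr1, Egr2, Ier2, Atf3, Nr4a1 and Dusp1. They are 10 of the 52636 gene identifiers in the count tables, and each of the 10 passed the filter on low counts that left 20546 genes to test.

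The libraries came from whole lung of wild type male C57BL/6 mice, 8 libraries in 4 groups of 2. The COPD mice model was made with elastase from porcine pancreas at 10 weeks of age and 3 doses of lipopolysaccharide (LPS) from 12 weeks of age, and control mice were given PBS instead. Each was fed a control diet (control-fed) or, from 8 weeks of age, a diet with 2% TJ-41, the herbal medicine Hochuekkito (TJ-41-fed), so that all animals shared the strain and only the COPD mice model carried elastase and LPS together. The age at which the lungs were taken for RNA and the number of mice behind a library were not given in the sources used here, so p-values measure the spread between these libraries, which may be partly technical.

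Total counts ran from 18767295 to 20888042 per library, and levels are given as CPM (counts scaled to library size) adjusted by the trimmed mean of M-values. Replicate 2 of the control-fed COPD mice model stood apart from its partner: the SD of the difference in log2 CPM between replicates was 0.675 in that group and 0.313 to 0.377 in the other groups. Its summed level of 8 airway epithelium markers was 29900 CPM against 12500 CPM in its partner, and its summed level of 8 neutrophil markers was 73.8 CPM against 232 CPM. The medians over the airway markers were closer, at 0.306 and 0.0572 in log2 CPM minus each gene's mean, and 4 of the 8 peaked in replicate 2. Values without it stand beside the main results. In whole lung, fewer cells of a type and less RNA per cell cannot be told apart.

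The promoters of 8 of the 10 genes were matched by symbol in the RefSeq windows of GRCm38.p6, each running from 250 bases before to 50 bases after a transcription start. These 8 genes had 12 windows, 5 of them for Egr2. The search covered both strands for the cyclic AMP response element (CRE, TGACGTCA) and its core site (TGACG, its first 5 letters, which every CRE also contains), which CREB and ATF factors can bind, and for the AP-1 site (TGANTCA), which Fos and Jun dimers can bind. It also covered the EGR site (GCGNGGGCG), the CArG box that serum response factor can bind, and the TATA box (TATAAA). A CRE core site lay in 9 of the 12 windows, from 7 of the 8 genes, against 20.8% of all 32851 windows. Among these 8 genes the full CRE was found only in Dusp1, against 1.79% of all windows. The CArG box was found among them only in Egr2, in 4 of its 5 overlapping or neighbouring windows, against 1.63%. EGR sites lay in the windows of Fosb and Nr4a1 (5.55% of all windows), TATA boxes in those of Fos and Junb (13.6%), and the AP-1 site in 0 of the 12 windows (7.81%). The window of Jun held none of the 6 motifs, and sites that vary from their letters were not searched for.

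The windows of 5 genes are printed 5′ to 3′ along the gene, with every match to the 6 motifs in capitals (a core site on the other strand reads CGTCA). Positions give the first base of a match, counted back from the transcription start. Fos, Fosb, Nr4a1 and Dusp1 are shown because their levels had the widest spread or were most alike over the libraries, and Egr2 because its level was the steadiest. Fos lies on chr12:85473640-85473939 (plus strand), with core sites starting at positions -129 and -66 and a TATA box at -33. Fosb lies on chr7:19309996-19310295 (minus strand), with a core site at -60 next to an EGR site at -50. Nr4a1 lies on chr15:101266596-101266895 (plus strand) and held 4 core sites, the nearest at -40. Dusp1 lies on chr17:26508423-26508722 (minus strand) and held the full CRE at -143. The Egr2 window shown, chr10:67537619-67537918 (plus strand), held a CArG box at -72 between core sites at -111 and -55. A match is a run of letters and no measurement of binding.
Fos: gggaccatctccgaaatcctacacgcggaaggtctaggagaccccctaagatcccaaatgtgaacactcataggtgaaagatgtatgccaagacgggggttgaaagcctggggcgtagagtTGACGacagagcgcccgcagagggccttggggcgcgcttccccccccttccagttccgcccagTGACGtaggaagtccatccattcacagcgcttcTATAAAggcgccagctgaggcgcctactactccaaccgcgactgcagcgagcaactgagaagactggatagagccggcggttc
Fosb: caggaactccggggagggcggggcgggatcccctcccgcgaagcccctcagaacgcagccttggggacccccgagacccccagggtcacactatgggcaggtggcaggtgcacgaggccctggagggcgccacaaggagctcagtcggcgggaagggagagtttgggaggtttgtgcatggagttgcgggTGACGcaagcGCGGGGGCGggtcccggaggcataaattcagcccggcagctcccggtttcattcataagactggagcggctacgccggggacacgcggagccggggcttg
Nr4a1: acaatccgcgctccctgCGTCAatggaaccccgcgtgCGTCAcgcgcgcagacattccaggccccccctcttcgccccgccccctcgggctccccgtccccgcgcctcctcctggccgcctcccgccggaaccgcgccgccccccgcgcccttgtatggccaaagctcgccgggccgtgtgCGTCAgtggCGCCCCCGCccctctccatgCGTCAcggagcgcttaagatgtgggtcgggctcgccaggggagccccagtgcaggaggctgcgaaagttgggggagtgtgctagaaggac
Dusp1: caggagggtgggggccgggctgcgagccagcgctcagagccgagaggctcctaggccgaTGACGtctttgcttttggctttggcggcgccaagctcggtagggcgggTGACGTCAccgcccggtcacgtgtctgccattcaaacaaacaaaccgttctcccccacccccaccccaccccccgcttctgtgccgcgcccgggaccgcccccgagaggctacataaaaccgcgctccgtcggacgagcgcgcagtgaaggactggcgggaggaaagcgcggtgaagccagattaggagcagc
Egr2: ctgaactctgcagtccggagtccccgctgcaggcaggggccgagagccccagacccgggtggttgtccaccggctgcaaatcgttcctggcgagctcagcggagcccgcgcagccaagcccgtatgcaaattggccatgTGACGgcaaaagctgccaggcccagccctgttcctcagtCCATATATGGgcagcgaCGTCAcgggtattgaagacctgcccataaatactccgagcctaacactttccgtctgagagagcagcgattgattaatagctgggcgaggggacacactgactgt

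Per kilobase of exon, Jun and Dusp1 were the most abundant of the 10 genes, at 52.0 ± 9.8 and 49.9 ± 16.6 CPM per kilobase (SD over 8 libraries). They did not differ beyond their spread, and Jun was above Dusp1 in 4 of 8 libraries. Next came Nr4a1 at 23.6 ± 12.8, Ier2 at 20.1 ± 4.38, Fos at 17.4 ± 8.08, Egr1 at 16.0 ± 6.71, Junb at 10.7 ± 2.85 and Atf3 at 8.22 ± 3.73 CPM per kilobase. Egr2 at 2.25 ± 0.353 and Fosb at 1.89 ± 1.20 CPM per kilobase were lowest. Only the step from Dusp1 to Nr4a1 and that from Atf3 to Egr2 exceeded 1 SD of the library-by-library difference, and both held in 8 of 8 libraries. All other neighbours in this order differed by less than that SD. The plot of CPM by library shows the same values before division by length.

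**Figure D1:**
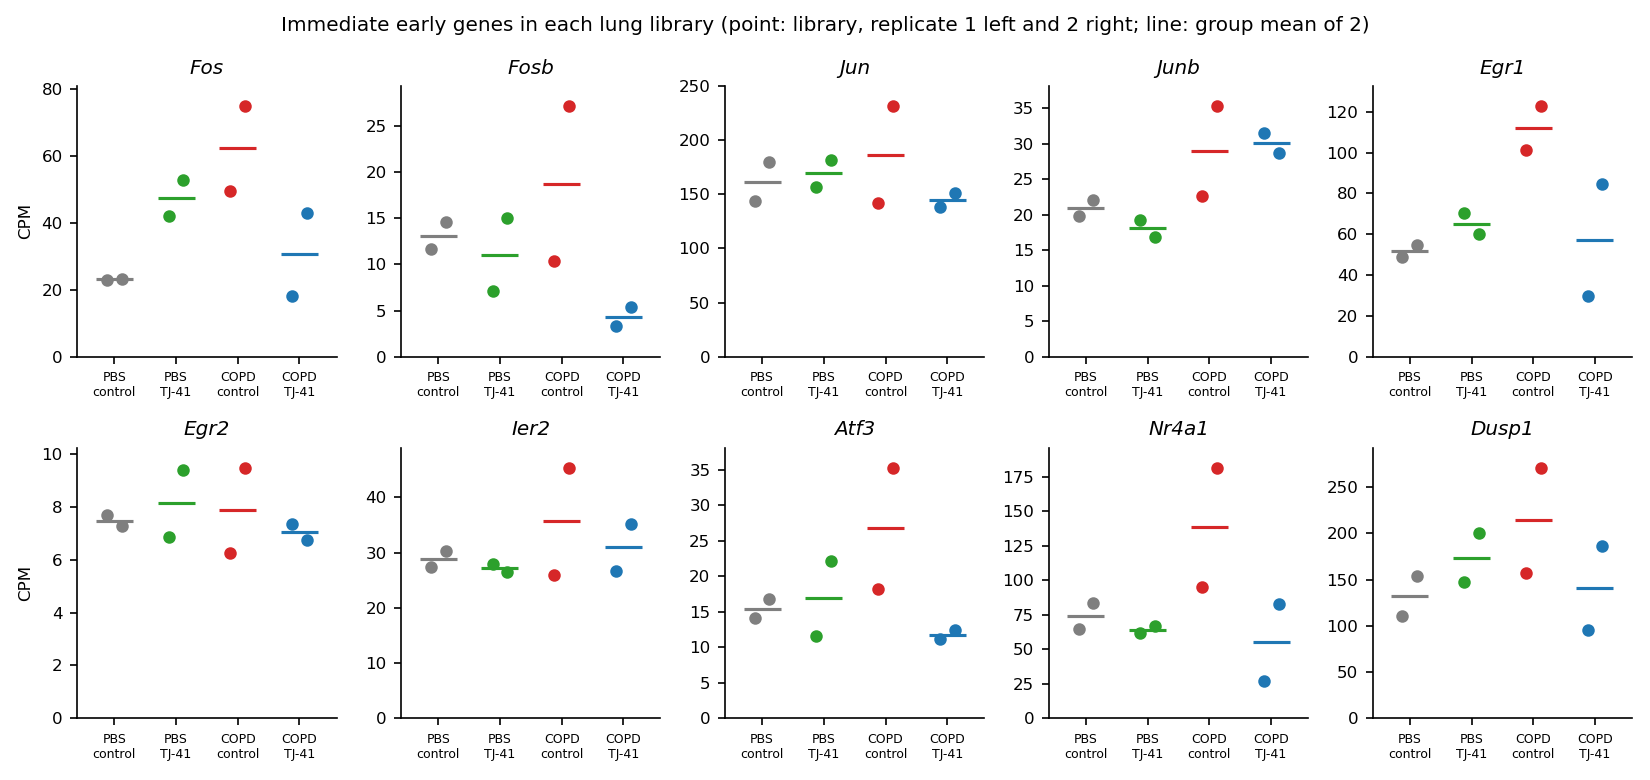
Levels of the 10 immediate early genes in CPM (y axis, from 0) in the 4 groups (x axis), with a point for each library, replicate 1 on the left and replicate 2 on the right, and a line at the mean of the 2 libraries. The highest point is replicate 2 of the control-fed COPD mice model for all 10 genes, and replicate 1 of the TJ-41-fed COPD mice model is the lowest for 7 of them.

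AP-1 is a dimer of a Fos family and a Jun family protein, or of 2 Jun family proteins, that binds DNA and drives genes of proliferation, matrix turnover and inflammation. Fos (chr12:85473890-85477273) encodes the founding Fos subunit. Its level was 23.0 and 23.4 CPM in the control-fed control mice, 42.1 and 52.9 CPM in those on the TJ-41 diet, 49.6 and 74.9 CPM in the control-fed COPD mice model, and 18.1 and 43.0 CPM in the TJ-41-fed COPD mice model. Both libraries of control-fed control mice thus lay below both of each of the middle groups, while the last group spanned 18.1 to 43.0 CPM and overlapped both control groups. Fosb (chr7:19302696-19310051), which encodes a second Fos subunit, was the gene with the widest range, 8.25-fold between its highest and lowest library. It measured 11.6 and 14.5 CPM in control-fed control mice, 7.12 and 14.98 CPM on the TJ-41 diet, 10.3 and 27.1 CPM in the control-fed COPD mice model, and 3.29 and 5.37 CPM on the TJ-41 diet. The last 2 values were the lowest of the 8, below all 6 other libraries.

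Jun (chr4:95049034-95052222) encodes the partner common to most AP-1 dimers and was nearly level. It measured 144 and 179.7 CPM in control-fed control mice, 157 and 181 CPM on the TJ-41 diet, 142 and 231.5 CPM in the control-fed COPD mice model, and 138 and 152 CPM on the TJ-41 diet, a 1.67-fold range. Junb (chr8:84974484-84978718) encodes a Jun family protein that can restrain Jun as well as pair with Fos proteins. Its levels were 19.8 and 22.1 CPM, then 19.3 and 16.9 CPM in control mice on the control and TJ-41 diets, against 22.6 and 35.3 CPM, then 31.6 and 28.7 CPM in the COPD mice model on the same diets. Junb was the only one of the 10 genes with all 4 COPD mice model libraries above all 4 control libraries, although the step between 22.1 and 22.6 CPM was small. Atf3 (chr1:191170296-191218039) encodes a stress-induced factor that binds CRE and AP-1 sites and often represses inflammatory genes. It measured 14.1 and 16.8 CPM in control-fed control mice, 11.6 and 22.2 CPM on the TJ-41 diet, 18.1 and 35.3 CPM in the control-fed COPD mice model, and 11.1 and 12.5 CPM on the TJ-41 diet. Exons of Jun share 232 bases with the antisense gene Junos and those of Junb share 173 bases with Prdx2 on the other strand, and no strand setting of the counting was stated, so reads from these stretches cannot be told apart.

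Egr1 (chr18:34859823-34864984) encodes a zinc finger factor that responds to growth factors, stretch and low oxygen. Its level was 48.7 and 54.7 CPM in control-fed control mice, 70.2 and 60.2 CPM on the TJ-41 diet, 101 and 123 CPM in the control-fed COPD mice model, and 29.9 and 84.8 CPM on the TJ-41 diet. The control-fed COPD mice model was the highest group without overlap, and the replicates on the TJ-41 diet lay on either side of the control mice. Egr2 (chr10:67535475-67542188), a related factor with roles in myeloid and lymphoid cells, ranged only from 6.26 to 9.49 CPM over the 8 libraries, and all 4 groups overlapped.

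Nr4a1 (chr15:101254269-101274795) encodes an orphan nuclear receptor induced in myeloid and stromal cells. It measured 64.5 and 83.3 CPM in control-fed control mice, 61.8 and 66.8 CPM on the TJ-41 diet, 95.4 and 181.7 CPM in the control-fed COPD mice model, and 27.2 and 83.1 CPM on the TJ-41 diet. Its 6.67-fold range was second to that of Fosb. Ier2 (chr8:84661331-84662852), a small nuclear protein gene, ranged from 26.0 to 45.4 CPM with no separation of the groups. Dusp1 (chr17:26505590-26562128) encodes a phosphatase that removes the activating phosphates from p38 and JNK and so closes the pathway that induces it. Its level was 111 and 153.5 CPM in control-fed control mice, 147.5 and 200.1 CPM on the TJ-41 diet, 157 and 271 CPM in the control-fed COPD mice model, and 96.0 and 186 CPM on the TJ-41 diet.

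The first comparison was of the COPD mice model with control mice, within each diet and over both. On the control diet all 10 genes were higher on average in the COPD mice model, with a median log2 fold change of 0.61 against 0.01 for all genes tested, but none passed the test used for differentially expressed genes (DEGs), an edgeR quasi-likelihood false discovery rate (FDR) under 0.05 with a log2 fold change beyond 1. Of all genes 0.122% passed it. Without replicate 2 of that group, 4 of the 10 (Fosb, Jun, Egr2 and Ier2) lay below the controls. Fos had the largest difference, a log2 fold change of 1.42 ± 0.37 (SE) with an unadjusted p of 0.00355 and an adjusted p of 0.333 in edgeR. Egr1 followed at 1.11 ± 0.39 (adjusted p = 0.508, edgeR). These were the 2 genes with an unadjusted p under 0.05, a level that 7.7% of all genes reached. DESeq2 called 1 of the 10, Fos, with an adjusted p of 0.0104, and the edgeR exact test also called Fos alone, with an adjusted p of 0.0258. Over all alternatives the adjusted p of Fos ran from 0.0104 to 0.9. Groups did not overlap for 6 of the 10 genes, all higher in the COPD mice model (Fos, Junb, Egr1, Atf3, Nr4a1 and Dusp1), against 13.6% of all genes that were higher without overlap. No member was lower without overlap, against 14.1% of all genes.

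The 4 other genes of those 6 had log2 fold changes of 0.47 ± 0.23 for Junb, 0.79 ± 0.36 for Atf3, 0.91 ± 0.46 for Nr4a1 and 0.70 ± 0.36 for Dusp1, with adjusted p from 0.664 to 0.715 in edgeR. Fosb stood at 0.52 ± 0.48. These values leaned on replicate 2 of the COPD mice model: without it, the log2 fold changes were 0.24 for Atf3, 0.37 for Nr4a1, 0.25 for Dusp1, 0.11 for Junb and -0.34 for Fosb. Fos and Egr1 were at 1.10 and 0.97. The median of the 10 genes was 0.175 without that library and 1.04 without its partner, replicate 1. The count at an unadjusted p under 0.05 was 9 without that partner, 4 without replicate 2 of the TJ-41-fed COPD mice model and 1 without either replicate of the control-fed control mice, and Fos and Atf3 were called by edgeR without the partner. Without that partner 31.4% of all genes reached that p, and edgeR called 1343 of 21377 genes, against 25 of 20546 with all libraries.

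On the TJ-41 diet the median log2 fold change of the 10 genes in the COPD mice model was -0.22, 2 of the 10 genes were above 0, and none was called by edgeR, DESeq2 or the exact test, against 0.0779% of all genes in edgeR. Fosb was lower in the COPD mice model at -1.35 ± 0.50 (adjusted p = 0.69, edgeR) and Junb was higher at 0.74 ± 0.23 (adjusted p = 0.577, edgeR), and these were the 2 with an unadjusted p under 0.05, against 6.56% of all genes. Fos, at -0.64 ± 0.36, was on the other side of 0 from its value on the control diet. With a correction of each library for length and GC content of the genes, described below, Junb stood at 0.35. It was higher without overlap (28.5% of all genes were), and Fosb and Jun were lower without overlap (27.9% of all genes). Without replicate 1 of the COPD mice model on this diet the median was -0.0167 and 0 of the 10 had an unadjusted p under 0.05. Without replicate 2 of control mice on this diet the median was -0.0923 and the count was also 0, while without replicate 2 of the COPD mice model it was 5.

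Over both diets, 0 of the 10 genes were called by edgeR or DESeq2, against 0.443% of all genes in edgeR, and the median log2 fold change was 0.22. That median was 0.00436 without replicate 2 of the control-fed COPD mice model and -0.0192 without replicate 2 of the TJ-41-fed one, 0.395 and 0.369 without replicate 1 of the same groups, and 0.0821 with the length and GC correction. Junb was the 1 gene with an unadjusted p under 0.05, at 0.60 ± 0.16 (adjusted p = 0.198, edgeR), a level that 10.4% of all genes reached. It was also the only one whose 4 and 4 libraries did not overlap, higher in the COPD mice model, as in 3.35% of all genes. None was lower without overlap, against 3.43%. The count at an unadjusted p under 0.05 was 3 and 2 without replicates 1 and 2 of the control-fed COPD mice model and 4 without replicate 1 of the TJ-41-fed one. The adjusted p of Junb ran from 0.00268, without replicate 1 of the control-fed COPD mice model, to 0.738 over the alternatives, with a log2 fold change that stayed between 0.39 and 0.75. After a library-wise correction for length and GC content of the genes the 4 COPD mice model libraries held 31.0, 25.8, 28.2 and 27.2 CPM of Junb and the control libraries 19.1, 22.0, 22.1 and 21.8 CPM, still without overlap.

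**Figure D2:**
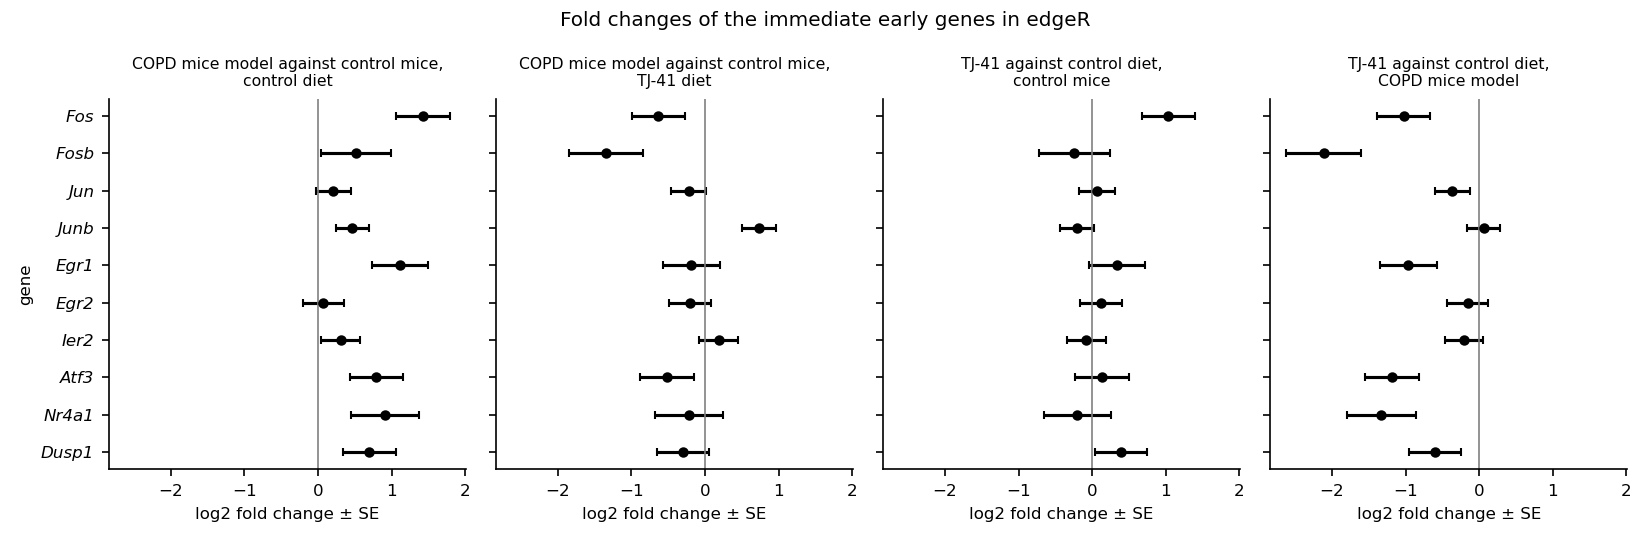
Log2 fold changes (x axis) with their standard errors from edgeR for the 10 immediate early genes (y axis) in 4 comparisons. On the control diet all 10 lie above 0 in the COPD mice model, and in the TJ-41-fed COPD mice model 9 of the 10 lie below 0 relative to the control diet.

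The second comparison was of the diets. In control mice the 10 genes stood near 0, with a median log2 fold change of 0.09, and none was called by edgeR, DESeq2 or the exact test, against 0% of all genes in edgeR. Fos was the exception in size, at 1.03 ± 0.36 (adjusted p = 0.996, edgeR), with 42.1 and 52.9 CPM on TJ-41 against 23.0 and 23.4 CPM on the control diet. It was the 1 gene of the 10 with an unadjusted p under 0.05, against 1.64% of all genes. Fos and Egr1 (0.34 ± 0.38) were higher without overlap, against 19.1% of all genes, and Junb was lower without overlap, also against 19.1%. After the length and GC correction Junb overlapped, at 22.1 and 21.8 CPM on TJ-41 against 19.1 and 22.0 CPM on the control diet. Leaving out any 1 library of these groups gave Fos a log2 fold change between 0.86 and 1.18, but without either replicate of the control diet, or without replicate 2 of the TJ-41 diet, 0 of the 10 genes had an unadjusted p under 0.05.

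Among COPD mice model libraries 9 of the 10 genes were lower on TJ-41 than on the control diet, with a median log2 fold change of -0.78 against -0.01 for all genes tested. Fosb differed most, at -2.11 ± 0.51 (adjusted p = 0.991, edgeR). Nr4a1 followed at -1.33 ± 0.46, then Atf3 at -1.18 ± 0.37, Fos at -1.03 ± 0.36 and Egr1 at -0.96 ± 0.38. These 5 had an unadjusted p under 0.05 in edgeR and did not overlap between the diets, against 4.1% of all genes for the first measure and 14.9% for lower without overlap. No member was higher without overlap, against 14.1% of all genes. None of the 10 was called by edgeR, with adjusted p of 0.991 and above, against 0.00487% of all genes, and none by the exact test. DESeq2 called 1, Fosb, with an adjusted p of 0.0155, and the adjusted p of Fosb ran from 0.0101 to 1 over the alternatives. Dusp1, the phosphatase, was at -0.60 ± 0.36 and Junb at 0.06 ± 0.23. Heart muscle and red cell markers were lower in the same comparison, with 7 of 7 and 4 of 7 tested genes at an unadjusted p under 0.05 and median log2 fold changes of -1.05 and -1.23, against 431 of 20546 genes lower at that level. Of 10 heat shock genes 0 were above 0, with a median of -0.721. Other lists went the other way. Mesothelium markers had 4 of 8 genes higher at that p (median 0.599), against 411 of 20546 genes. Neutrophil markers had 7 of 7 above 0 (median 0.824). The part of these lists in the immediate early gene levels was not tested.

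The values depended on which library of either group was left out. Without replicate 2 on the control diet the 5 log2 fold changes were -1.25 for Fosb, -0.79 for Nr4a1, -0.62 for Atf3, -0.70 for Fos and -0.82 for Egr1, and 2 genes of the 10 had an unadjusted p under 0.05. Without replicate 1 on the TJ-41 diet they were -1.80, -0.73, -1.10, -0.53 and -0.40 in the same order, and 1 gene did. Without replicate 2 on the TJ-41 diet they were larger, at -2.51, -2.34, -1.26, -1.78 and -1.90, the median of the 10 genes was -1.21 and 6 genes did. With replicate 2 on the control diet and replicate 1 on the TJ-41 diet both left out they were -0.94, -0.20, -0.54, -0.20 and -0.25, the median of the 10 genes was -0.0494, and 0 of the 10 had an unadjusted p under 0.05 or were called by edgeR. Without replicate 1 on the control diet, in contrast, 8 had an unadjusted p under 0.05 and 3 were called (Fosb, Atf3 and Nr4a1), with 1 library left to stand for that group and its spread taken from the other groups. In that fit 27.2% of all genes reached that p and edgeR called 728 of 21377, against 1 of 20546 with all libraries.

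**Figure D3:**
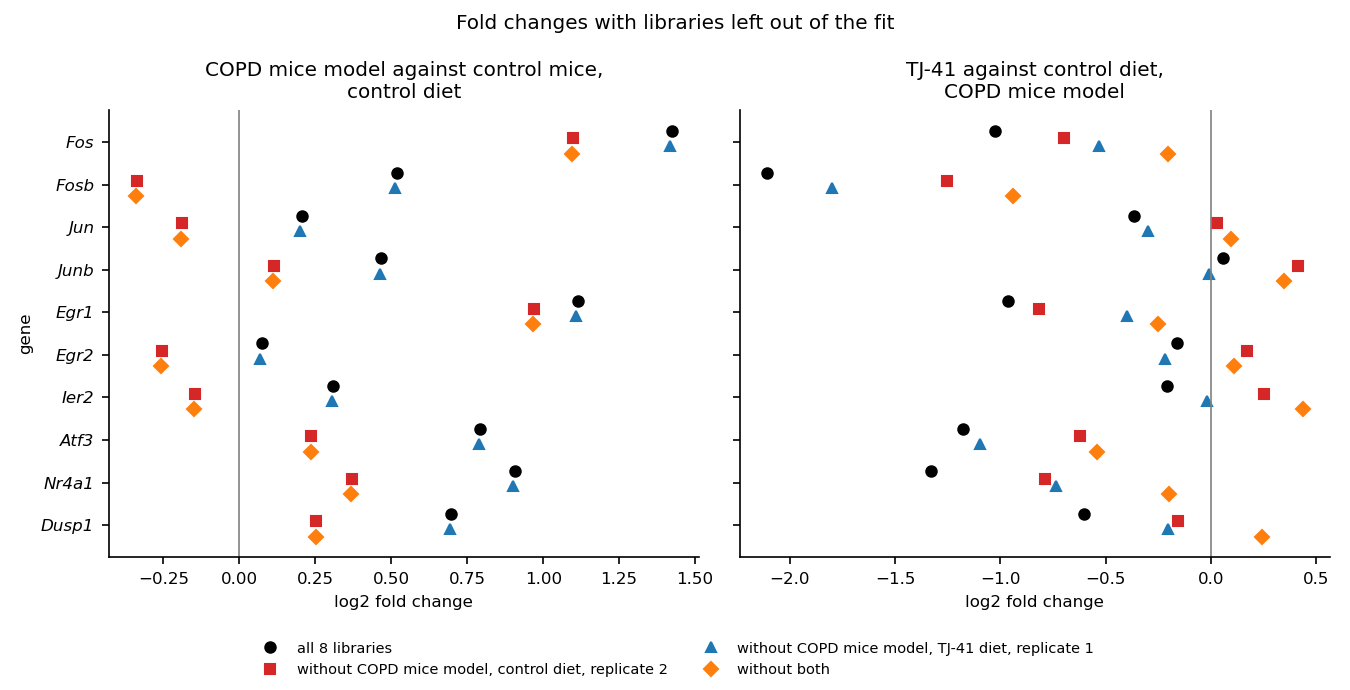
Log2 fold changes (x axis) of the 10 genes (y axis) from edgeR with all 8 libraries and with replicate 2 of the control-fed COPD mice model, replicate 1 of the TJ-41-fed COPD mice model, or both left out. In the right panel Fosb moves from -2.11 to -0.94 and Nr4a1 from -1.33 to -0.20 with both left out, while in the left panel Fos moves from 1.42 to 1.10.

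Whether the diet effect differed by disease model was tested by the interaction of the 2 factors. The interaction was -2.06 ± 0.51 on the log2 scale for Fos (adjusted p = 0.999, edgeR), which was higher on TJ-41 in control mice and lower on it in the COPD mice model without overlap in either. Egr1, at -1.30 ± 0.54, had the same arrangement. Fosb stood at -1.87 ± 0.69, Atf3 at -1.31 ± 0.52, Nr4a1 at -1.13 ± 0.65 and Dusp1 at -0.998 ± 0.50. Of the 10 genes 0 were called by edgeR, against 0% of all genes, and 4 (Fos, Fosb, Egr1 and Atf3) had an unadjusted p under 0.05, against 3.27%. DESeq2 called 1, Fos, with an adjusted p of 0.0482, and the adjusted p of Fos ran from there to 1. Without replicate 2 of the control-fed COPD mice model the interaction was -1.72 for Fos, -0.99 for Fosb, -1.14 for Egr1, -0.74 for Atf3, -0.57 for Nr4a1 and -0.54 for Dusp1. With replicate 1 of the TJ-41-fed COPD mice model left out as well, it was -1.24 for Fos, -0.70 for Fosb, -0.59 for Egr1, -0.67 for Atf3, 0.01 for Nr4a1 and -0.15 for Dusp1. Without replicate 1 of the control-fed COPD mice model, in contrast, it was -2.32 for Fos, -2.39 for Fosb, -1.42 for Egr1 and -1.7 for Atf3. How many of the 10 genes had an unadjusted p under 0.05 also depended on which library was left out, and each such fit left 1 library in a group.

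Library by library, most of the 10 genes shared a profile, which Junb and Egr2 followed least. Replicate 2 of the control-fed COPD mice model was the highest of the 8 libraries for 10 of 10 genes, and 29.2% of all genes were highest there. Replicate 1 of the TJ-41-fed COPD mice model was the lowest for 7 of 10 (Fos, Fosb, Jun, Egr1, Atf3, Nr4a1 and Dusp1), and 8.97% of all genes were lowest there. The members' median, as log2 CPM minus each gene's mean, was 0.836 in the first of these libraries, -0.632 in the second and between -0.207 and 0.224 in the other 6. Within each group the 10 genes also leaned to replicate 2, which was the higher of the pair for 9, 7, 10 and 8 of 10 genes in control mice on the control and TJ-41 diets and the COPD mice model so fed. The median log2 ratio of replicate 2 to replicate 1 was 0.211, 0.268, 0.746 and 0.551 in the same order, against -0.00589 to 0.0239 for all genes.

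Over the 8 libraries Dusp1 followed the mean of the other 9 genes most closely (Pearson r = 0.911), then Atf3 (0.887), Jun (0.871) and Nr4a1 (0.866). Egr2 (0.521) and Junb (0.217) followed it least. Without replicate 2 of the control-fed COPD mice model, over 7 libraries, r was 0.938 for Dusp1, 0.755 for Nr4a1, 0.167 for Ier2, -0.00266 for Egr2 and -0.639 for Junb. These coefficients describe 8 or 7 libraries that share their depth and processing.

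**Figure D4:**
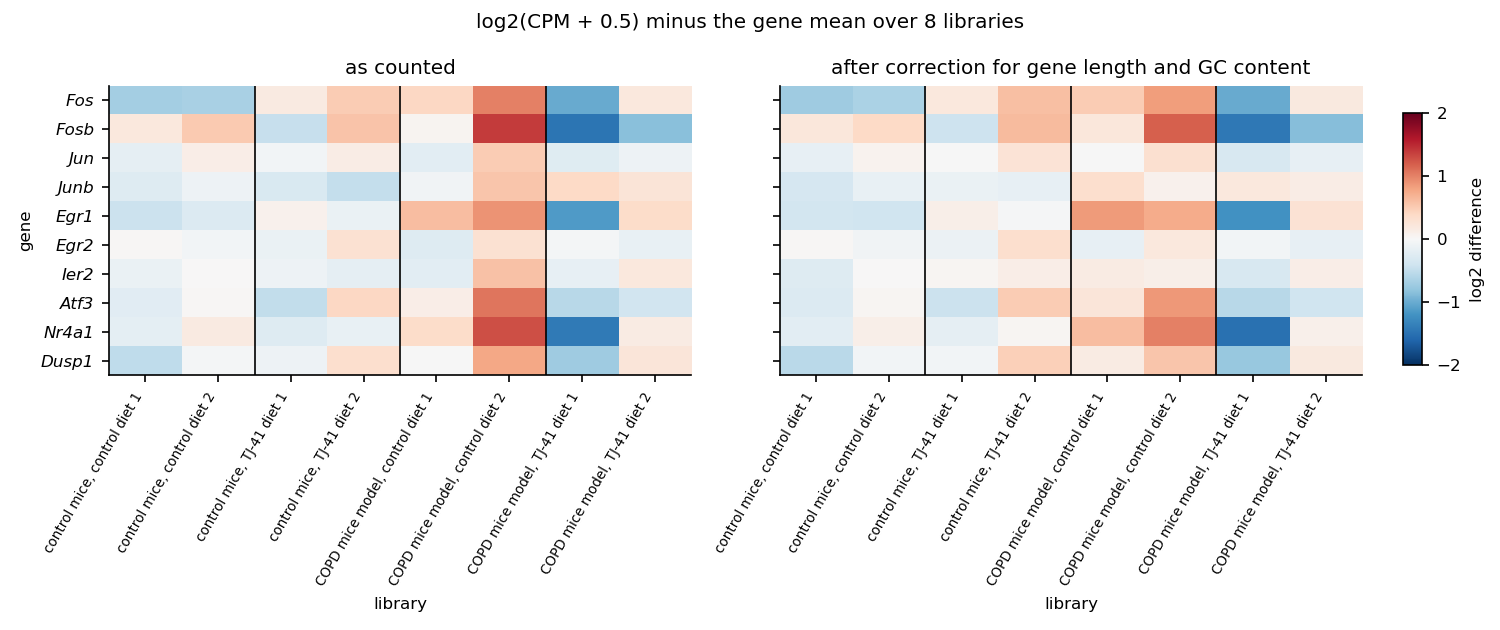
Level of the 10 genes (rows) in the 8 libraries (columns) as log2(CPM + 0.5) minus the gene mean, red above and blue below it, as counted (left) and after correction for gene length and GC content (right), with lines between the groups. The column of replicate 2 of the control-fed COPD mice model is red for all 10 genes on the left, and the next column, replicate 1 on the TJ-41 diet, is the lowest of the 8 for 7 of them.

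This correction was added because libraries can differ in both and because the 10 genes are rich in GC (median 55.8% against 49.2% for all genes). After it, replicate 2 of the control-fed COPD mice model was the highest library for 6 of 10 genes (28.6% of all genes), with Junb, Egr1 and Ier2 among the 4 that no longer peaked there. Replicate 1 on the TJ-41 diet was the lowest for 8 of 10 (10.6% of all genes). The members' median was 0.658 in the first library and -0.661 in the second. The median log2 ratio of replicate 2 to replicate 1 became 0.221, 0.337, 0.356 and 0.551 in the order of groups above, and replicate 2 was the higher for 8, 8, 7 and 8 of the 10 genes.

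Several other lists also peaked in replicate 2 of the control-fed COPD mice model. Heat shock genes, whose products refold proteins after stress, had a median of 0.784 there. Hspa1a measured 31.1 CPM there and 36.9 CPM in replicate 2 of TJ-41-fed control mice, against 2.29 to 8.93 CPM in the other 6 libraries, and Hspa1b showed the same split, with 49.9 and 53.3 CPM against 3.64 to 15.9 CPM. The glucocorticoid response list had its highest median in the same COPD mice model library, 0.664, with 6 of its 10 genes highest there, and Fkbp5 measured 42.5 CPM in it against 33.6 CPM in its partner. The summed level of heart muscle markers (8 genes, none at 0 in all libraries) was 674 CPM there against 259 to 553 CPM in the other 7 libraries, and that of red cell markers (7 of 8 genes found) was 3760 CPM against 875 to 2740 CPM. Fibroblast and smooth muscle markers had a median of 0.698 there against -0.511 in its partner, with summed levels of 2580 and 1460 CPM. In replicate 1 of the TJ-41-fed COPD mice model the heat shock median was the lowest of the 8, at -0.452, but as counted other lists were not at their lowest there. The heart muscle sum was 321 CPM against 259 CPM in replicate 2 of that group, the red cell sum 990 CPM against 875 CPM in replicate 2 of control-fed control mice, and the glucocorticoid median -0.168 against -0.569 in replicate 1 of TJ-41-fed control mice. After the length and GC correction, the red cell median was the lowest in that TJ-41-fed COPD mice model library, at -0.702. So were the medians of other immediate early genes, at -0.293, and of endothelial markers, at -0.188. The part of these in the immediate early gene levels was not tested.

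Circadian clock genes separated all COPD mice model libraries from all control libraries. Dbp, a clock output factor, measured 8.76 to 21.3 CPM in the 4 control libraries and 185 to 200.3 CPM in the 4 COPD mice model libraries, and Arntl, a core activator, had a log2 fold change of -2.93 over both diets. Of the 15 clock genes 7 rose and 3 fell over both diets (edgeR, FDR under 0.05 and log2 fold change beyond 1). Per1, which is both a clock gene and inducible by cyclic AMP, ranged from 21.5 to 84.0 CPM in control libraries and was 97.5, 218.9, 98.2 and 115.5 CPM in the COPD mice model, with its highest value in the library where the 10 genes peaked. The time of day of collection was not given in the sources used here, and the part of the clock in the COPD comparison of the 10 genes was not tested.

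**Figure D5:**
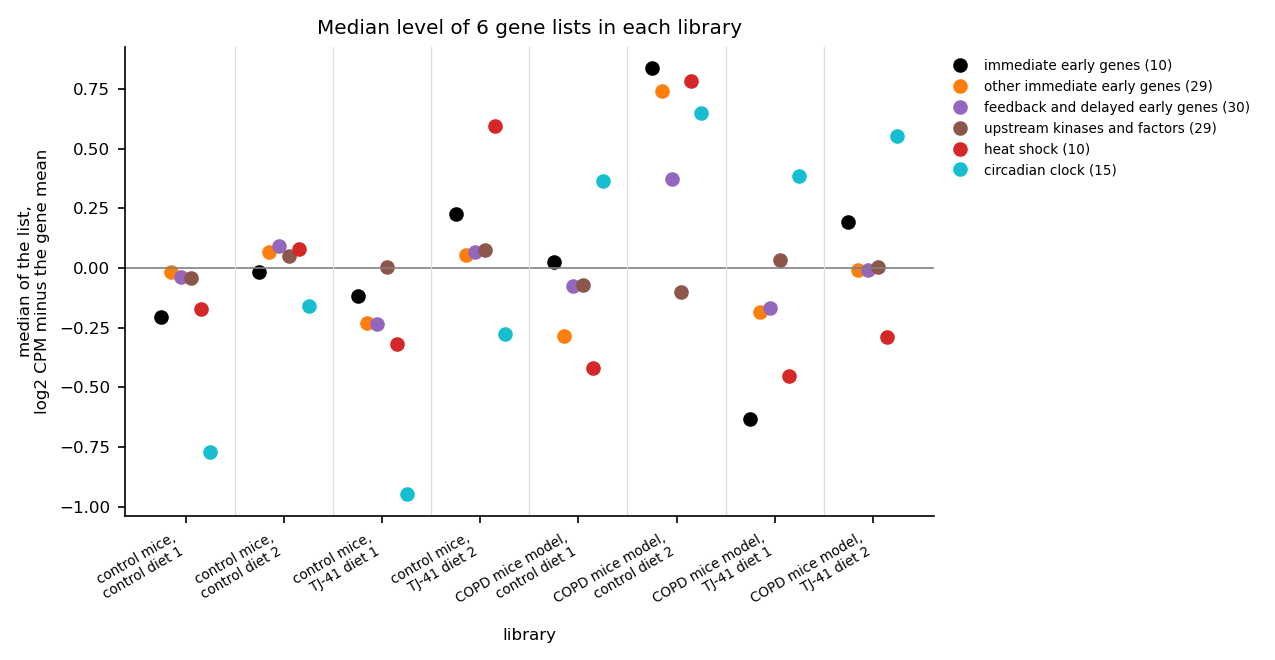
Median level of 6 gene lists (y axis, log2 CPM minus the gene mean over 8 libraries) in each library (x axis). The 10 immediate early genes, the other immediate early genes and the heat shock genes stand at 0.836, 0.74 and 0.784 in replicate 2 of the control-fed COPD mice model, and the clock list is below 0 in all 4 control libraries and above 0 in all 4 COPD mice model libraries.

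A wider list of 30 other immediate early genes had 29 tested and 0 called in any of the 6 comparisons by edgeR. At an unadjusted p under 0.05, 3 of the 29 genes stood higher in the control-fed COPD mice model and 3 were lower on TJ-41 in the COPD mice model, where the list's median log2 fold change was -0.42. Of all 20546 genes 961 were higher and 431 lower at that level in these comparisons. Of the list 21 of 29 were highest in replicate 2 of the control-fed COPD mice model (29.2% of all genes), and 3 of 29 were lowest in replicate 1 on the TJ-41 diet (8.97% of all genes). After the length and GC correction these counts were 18 of 29 (28.6% of all genes) and 7 of 29 (10.6% of all genes). Nr4a3, a receptor of the same family as Nr4a1, had the lowest log2 fold change over both diets, -1.41 ± 0.68, but was not uniform within groups: it measured 35.4 and 34.1 CPM in control-fed control mice, 3.38 and 37.8 CPM on the TJ-41 diet, 5.21 and 31.7 CPM in the control-fed COPD mice model, and 5.69 and 5.27 CPM on the TJ-41 diet. Npas4, a factor best known in neurons, was next at -0.83 ± 0.39, at no more than 1.14 CPM. Arc (0.67 ± 0.41) and Ccn1, a matrix protein gene (0.65 ± 0.36), had the highest values. None of these 4 had an adjusted p under 0.05.

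Of 30 feedback and delayed early genes, Bhlhe40 was the 1 called. It encodes a repressor that also acts in the clock, and it rose over both diets at 1.25 ± 0.14 (adjusted p = 0.00578, edgeR), with 59.0 to 84.0 CPM in the control libraries and 146.5 to 203.1 CPM in the COPD mice model. Ptgs2, which encodes the inducible cyclooxygenase, had the lowest log2 fold change, -1.07 ± 0.24 (adjusted p = 0.121, edgeR), with 22.9 to 35.7 CPM in control libraries and 25.1, 16.6, 6.31 and 11.6 CPM in the COPD mice model. Dusp8 (-0.46 ± 0.28) and the matrix protein gene Ccn2 (0.63 ± 0.41) completed the extremes. The 29 upstream kinases and transcription factors, among them Srf, Creb1 and the ERK, JNK and p38 kinases, had 0 called in any comparison and median log2 fold changes between -0.07 and 0.05, with at most 1 gene at an unadjusted p under 0.05 in a comparison.

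Among the 14031 other genes that averaged 5 CPM or more, those whose log2 CPM most resembled the members' mean profile over the 8 libraries were Tigar (Pearson r = 0.985), Cyp2f2 (0.984), Fgf11 (0.978), Ywhab (0.974), Dnajb13 (0.965), Gclc (0.957), Ywhah (0.954), Rtn3 (0.954), Zmynd19 (0.947) and Gm6210 (0.942). Cyp2f2, a cytochrome P450 abundant in club cells of the airway, measured 2740 CPM in replicate 2 of the control-fed COPD mice model, 1540 CPM in replicate 1 on the TJ-41 diet and 1760 to 1940 CPM in the other 6. All 10 had the same highest and lowest library as most of the members. They were chosen by likeness to the members' profile, so this was largely fixed by the choice. None belongs to the lists of immediate early, feedback or upstream genes. After the length and GC correction the leading genes were Fgf11 (0.989) and Cyp2f2 (0.988), and the immediate early gene Btg2 was among the first 10 (0.927).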

How the data were processed

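Whole lung RNA was sequenced by standard Illumina protocols. Per the labels, the authors' processing notes name HISAT2, edgeR and the genome build mm10, and the study's methods name CLC Genomics Workbench and edgeR; the counting program, annotation and strand setting were not given in the sources used here. The authors deposited raw counts per Ensembl gene for each library, with whole numbers and no normalization. Groups came from the sample titles, where TJ41 and the treatment label TJ4 were read as TJ-41.

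Gene symbols and exon lengths came from a GRCm38 annotation, which named 52489 of the identifiers. Genes were filtered in edgeR 4.0.16 (R 4.3.3; minimum count 10, minimum total 15), scaled by the trimmed mean of M-values and fitted over all 8 libraries by group in the quasi-likelihood model, with 4 residual degrees of freedom and Benjamini-Hochberg adjustment over 20546 genes. Alternatives were DESeq2 1.42.0, the edgeR exact test, other scalings and filters, fits on the groups compared, a replicate block and leaving out each library. A loess correction for gene length and GC content (span 0.5), leaving out a pair of libraries, and the counts at an unadjusted p under 0.05 were added after seeing the data. Medians of centred levels use log2(CPM + 0.5). The fit was tested on simulated data for the COPD comparison on the control diet. At an FDR under 0.05 alone it recovered 18% of genes changed by a log2 fold change of 1. Of those changed by 2 it recovered 78%, so a gene not called can still differ.

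Replicates differed by more than sampling noise (chi-square per degree of freedom 11.9 to 88.1), so none was counted as a duplicate. A floor of 3 counts corresponded to 0.153 to 0.162 CPM and covers counting error only.

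The members and lists were chosen with earlier results of these data known. The text names all 10 members, any list gene called in a comparison or the extremes of 2 early gene lists (the 2 largest rises and falls over both diets), the 10 genes most like the members' mean profile, and Hspa1a, Hspa1b, Per1, Fkbp5 and Dbp. Clock and B cell list genes that were called (10 clock genes; Jchain and Ighm, at log2 fold changes of 2.64 and 1.76 over both diets) are given by count or not described further.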

Additional observations from a re-analysis of the deposited data

How the results depend on the processing

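Of 454 alternative values for 26 log2 fold changes of single members, 436 had the direction and side of the threshold reported. Reversed values were -0.341 for Fosb in the control-fed COPD mice model against its controls, and 0.243 for Dusp1 and 0.00563 for Nr4a1 in the diet comparison of the COPD mice model and in the difference of the diet effects, all without replicate 2 of the control-fed COPD mice model and replicate 1 on the TJ-41 diet; and -0.0306 for Junb in that diet comparison with the length and GC correction. Leaving out each library gave -0.339 to 1.05 for Fosb and -0.225 to 0.412 for Junb in the same comparisons. The median in the difference of the diet effects was -1.06 and was -0.0798 without both libraries.

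Members called, 0 in every comparison, became 1 for the control-fed COPD mice model under DESeq2, the exact test, a filter of at least 1 count and without both libraries, and 0 to 2 when each library was left out. In the diet comparison of the COPD mice model the count was 1 under DESeq2 and 0 to 3 with each library left out, and in the difference of the diet effects it was 1 under DESeq2. Members at an unadjusted p under 0.05 numbered 5 for the control-fed COPD mice model under DESeq2, the filter of at least 1 count and the replicate block (main 2), and 1 to 9 with each library left out. On the TJ-41 diet they ranged from 0 to 5 in that way. Over both diets they were 2 with the filter of at least 1 count, 5 without both libraries, and 1 to 4 with each left out. For the diet in control mice they were 2 without both libraries and 0 to 1 with each left out; in the COPD mice model they were 2 on the groups compared alone, 0 without both libraries and 1 to 8 with each left out; for the difference they were 2 and 1 to 7. The cause was not tested.

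Deviations of same-numbered replicates correlated between -0.248 and 0.14 over genes, so the numbers were not taken as pairs; with the replicate block 0 members were called in each of the 6 comparisons. Over all genes edgeR called 25, 16, 91, 0, 1 and 0 and DESeq2 171, 125, 245, 10, 12 and 17 in the COPD comparisons on the control diet, TJ-41 diet and both, the diet comparisons in control mice and the COPD mice model, and their difference. With 2 libraries a group, a left-out library leaves 1 to stand for its group, with the spread of the others assumed.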
